A study of Mus musculus with 6 samples.

Results

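Matr3 and 7 genes whose products are related to matrin 3, share its place in the nucleus or lie beside it on the chromosome were followed in Hepa1-6 cells, a line labelled as mouse liver cancer cells. The genes were taken by name: Matr3, Snhg4, Safb, Safb2, Sltm, Ptbp1, Ptbp2 and Ptbp3. These 8 names match 9 of the 55573 rows of the table of gene counts, because 2 rows carry the name Snhg4. RNA from 3 libraries labelled Matr3 knockout, made with CRISPR/Cas9, and 3 labelled wild type was sequenced. All cells grew in the same serum-containing medium, and no other agent or allele is named in the labels. Whether the knockout is 1 clone, which part of Matr3 was targeted and whether the cultures of a group were separate is not stated there. The p-values therefore cover the spread among the 3 libraries of a group, and that spread may be technical.

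Matrin 3 binds both RNA and DNA and belongs to the nuclear matrix, the insoluble scaffold left when soluble proteins and most DNA are washed from nuclei. It binds pyrimidine-rich introns together with PTBP1, the polypyrimidine tract-binding protein, and both hold alternative exons and intronic repeats back from splicing. The SAFB proteins (Safb, Safb2 and the SAFB-like modulator Sltm) bind scaffold attachment regions of DNA through a SAP domain and RNA through an RNA recognition motif. PTBP1 is the general member of its family, PTBP2 the neuronal one, whose transcript PTBP1 drives into decay by exon skipping, and PTBP3 is best known from blood cells.

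Library totals ranged from 20736570 to 30794032 counts. Libraries 1 and 3 of the knockout lay close together (a chi-square of 3.41 per tested gene), whereas knockout library 2 lay at 54.8 and 65.7 from them. Wild-type library 1 lay at 23.0 and 27.4 from the other 2 wild-type libraries, which were 6.19 apart. This library had the lowest total but the most genes with a count, 23440 beside 20450 to 21217 in the rest. The deviation of a gene from its mean over libraries correlated across genes with their GC content, with r = 0.25 for libraries 1 and 3 of the knockout, -0.26 for its library 2 and -0.03 to -0.15 for the wild type. The labelled cell type was not borne out by its markers: of 12 hepatocyte and hepatoma genes, 10 were under 1 FPKM (fragments scaled by gene length and library size) in every library, with 0 reads for Ttr and 1 read in total for Alb and for Hnf4a. Afp lay at 0.639 to 1.502 FPKM and Apoa2 at 1.25 to 3.08 FPKM. Of 8 fibroblast markers, Col3a1 (52.4 to 68.2 FPKM) and Col1a1 (1.67 to 3.64) were over 1 FPKM in every library, Pdgfra lay at 0.274 to 0.432, Pdgfrb at 0.196 to 0.690, Col1a2, Dcn and Lum were near 0 and Thy1 was at 0. Of 8 macrophage markers only Cd68 (8.30 to 12.7 FPKM) was present, with Ptprc and Csf1r near 0 and the other 5 at 0. The neuronal markers over 1 FPKM in every library were Tubb3, Nefl and Dlg4. The summed macrophage markers, nearly all Cd68, lay at 9.96 to 12.7 FPKM in the knockout and 8.31 to 9.45 FPKM in wild-type libraries, and the 6 endothelial markers at 0.206 to 0.316 against 0.633 to 0.821 FPKM. Nearly all of the endothelial difference was Cdh5, at a mean of 0.115 against 0.559 FPKM, while Pecam1 was at 0.104 against 0.108 FPKM. Neither of these sums overlapped between the groups, and their part in the results was not tested. The summed fibroblast markers overlapped (55.4 to 66.9 against 59.5 to 71.1 FPKM). In bulk RNA, fewer cells of a type and less RNA per cell cannot be told apart.

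Matr3, the noncoding Snhg4 row, Ptbp1, Ptbp2 and Sltm were lower in every knockout library than in any wild-type library. The second row named Snhg4 was too. It passed the filter on low counts through the wild-type libraries, where it was higher, so it does not count toward these. Of the 9 rows, 3 passed the test and all 3 fell: Matr3, the noncoding Snhg4 row and Ptbp2. Safb, Safb2 and Ptbp3 overlapped between the groups. The test was edgeR's quasi-likelihood F test over 14842 genes, and a gene was called at a Benjamini-Hochberg adjusted p under 0.05. Among all tested genes 15.2% were called, 7.48% as lower and 7.69% as higher, and in 36.6% the groups did not overlap, in 18.4% with the knockout lower. The median log2 fold change of the 9 rows was -0.41, beside -0.02 for all tested genes. It includes the targeted gene Matr3 and the second Snhg4 row, so it is not evidence that the related genes fell. The genes were proposed with results of these libraries known, so the counts describe the set.

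**Figure D1:**
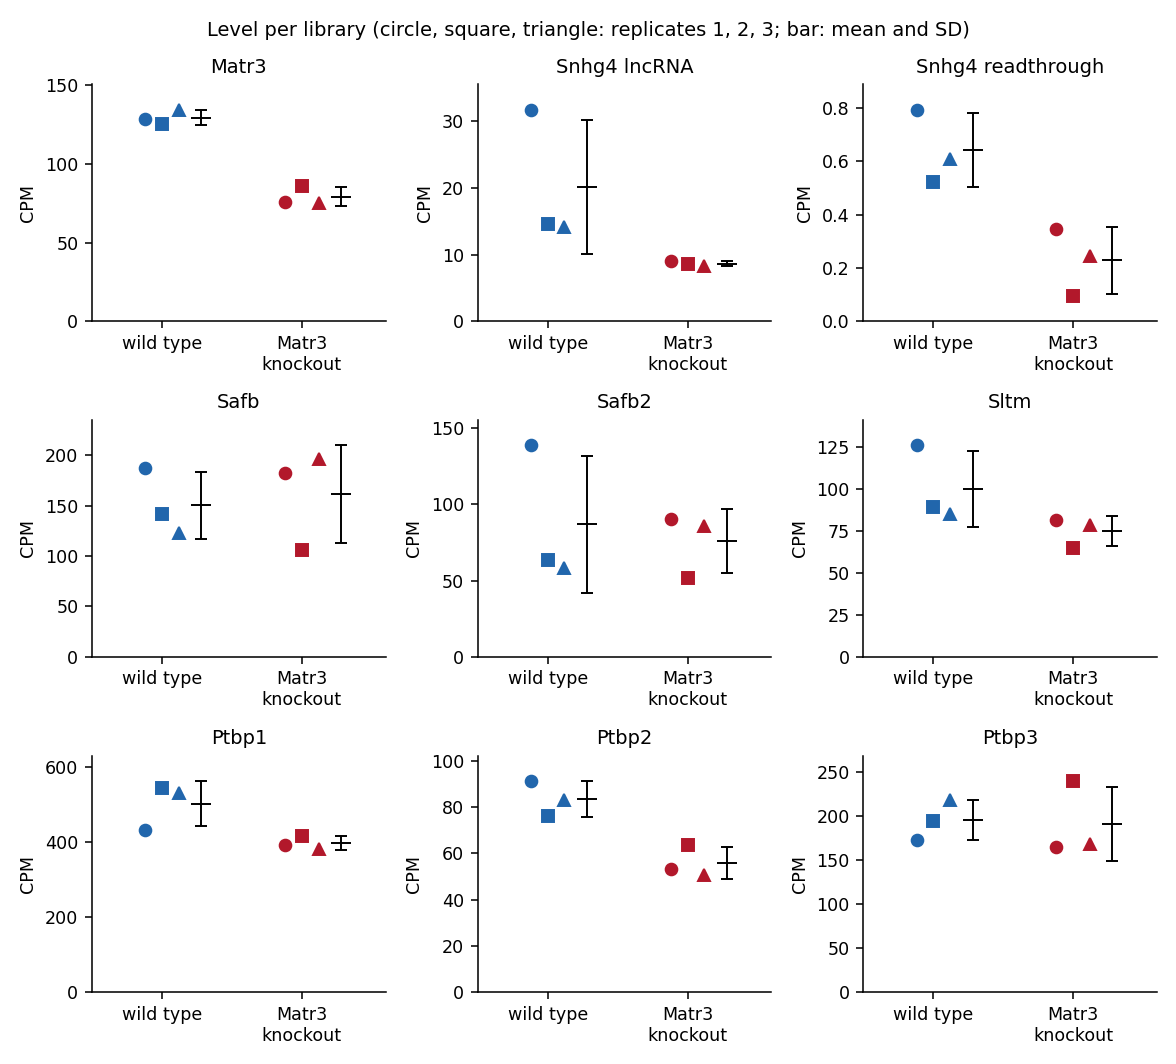
Counts scaled by library size with TMM (CPM) of each of the 9 rows on the y axis, with 1 point per library for the wild type (blue) and the Matr3 knockout (red), and a bar for the mean with its SD (n = 3). Matr3 lay at 75.3 to 86.1 CPM in the knockout and 125 to 134 CPM in the wild type. Safb and Safb2 varied more within each group than between the groups.

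The targeted gene comes first, as the check of the labels. Matr3 (ENSMUSG00000037236, protein coding, chromosome 18, 35695191 to 35726888, plus strand) held 1764, 2699 and 2140 reads in knockout libraries 1 to 3. The wild-type libraries held 2760, 3344 and 3532. Per length and depth these were 7.44, 8.53 and 7.41 FPKM in the knockout against 12.4, 12.3 and 13.2 FPKM in the wild type. All knockout libraries were lower and the groups did not overlap, yet none lost the transcript: the fitted level was 38.9% lower (log2 fold change -0.71, SE 0.0899, 95% interval -0.92 to -0.50, adjusted p = 0.00270). Of all tested genes, 7.51% had a lower fold change. With each library's trend with GC content and gene length removed, the fall was smaller and still called (-0.49, adjusted p = 0.00619). The transcript has a GC content of 38.5%, beside a median of 49.6% over tested genes. A count per gene does not show the edited site, nor whether the remaining RNA encodes protein.

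Directly upstream, the snoRNA host gene Snhg4 was lower as well. Snhg4 is a spliced noncoding RNA with a small nucleolar RNA in an intron, Snora74a, which guides pseudouridylation and held 0 reads in all 6 libraries. The noncoding row (ENSMUSG00000117869, chromosome 18, 35686424 to 35691369, plus strand) ends 3821 bases before Matr3 begins and shares none of its annotated 50-base words with Matr3, so its reads can be told from those of Matr3. It held 211, 267 and 237 reads in the knockout against 680, 390 and 370 in the wild type. These were 9.09, 8.52 and 8.34 CPM against 31.7, 14.6 and 14.1 CPM. The groups did not overlap, and wild-type library 1 stood far above the other wild-type libraries.

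The log2 fold change of the noncoding Snhg4 row was -1.22 (SE 0.301, adjusted p = 0.0311), a level 56.9% lower. Without wild-type library 1 it was -0.71 (adjusted p = 0.0146), beside -0.70 for Matr3 in the same fit. The call ended without knockout library 1 (-1.22, adjusted p = 0.0835) or knockout library 3 (-1.16, 0.0930) and by limma voom (-1.08, adjusted p = 0.0527).

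The second row named Snhg4 (ENSMUSG00000117694, listed as protein coding, chromosome 18, 35686457 to 35720761, plus strand), called Snhg4 readthrough in the plots, runs from the Snhg4 start into Matr3 and overlaps it over 25571 bases. Of the distinct 50-base words in its annotated transcripts, 70.7% also occur in Matr3 transcripts, so few reads can be assigned to it alone. These shared words are 15.7% of those of Matr3, and the Matr3 counts are uncertain to that extent. The second Snhg4 row held 8, 3 and 7 reads in the knockout and 17, 14 and 16 in the wild type. The groups did not overlap, but the difference was not called (log2 fold change -1.503, SE 0.519, edgeR adjusted p = 0.0878). Over the alternatives run, the log2 fold change ranged from -1.86 to -0.23, without a call. The row passed the filter on low counts through the wild-type libraries, where it was higher.

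Since both transcripts were lower, their proportion was compared within each library, which needs no scaling. The noncoding row made up 10.7%, 9.002% and 9.97% of the Matr3 plus Snhg4 reads in the knockout and 19.8%, 10.4% and 9.48% in the wild type. The groups overlapped (9.89% ± 0.844 against 13.2% ± 5.68, SD, n = 3 each, exact two-sided permutation p = 0.5, where the smallest possible p is 0.1). Without wild-type library 1 the groups differed by -0.0781 percentage points (exact permutation p = 1).

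The fall was set beside the other genes of the region. Within 500 kb of Matr3 lie 39 other rows, of which 10 held 0 reads and 15 were tested. None of the 15 was called by edgeR's quasi-likelihood test, which called 15.2% of all tested genes, and 4 had an unadjusted p under 0.05. DESeq2 and limma voom called 0 neighbours, beside 14.7% and 15% of all tested genes. A fit by limma on log2(FPKM + 1) called 2, beside 12.5%. In 6 of the 15 the groups did not overlap, 4 higher and 2 lower in the knockout, beside 36.6% of all tested genes. Their median log2 fold change was 0.17, and in 10 of 15 it was above 0. Sil1, a nucleotide exchange factor of the endoplasmic reticulum that starts 62.4 kb upstream, was at 31.1 ± 0.309 CPM in the knockout against 25.5 ± 1.64 CPM in wild-type libraries (SD, n = 3 each, log2 fold change 0.28, edgeR adjusted p = 0.0766). The alpha-catenin gene Ctnna1, 443 kb upstream, had a log2 fold change of 0.17 (adjusted p = 0.326).

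Downstream, Paip2, which restrains the poly(A)-binding protein, starts 36.5 kb from the Matr3 start and was at 106 ± 3.82 against 123 ± 1.02 CPM (SD, n = 3 each, log2 fold change -0.22, edgeR adjusted p = 0.0977). The vitamin C transporter gene Slc23a1, at 65.1 kb, was under 1 CPM in both groups on average (-0.52, adjusted p = 0.590). Gm36989, a gene model still to be tested by experiment that lies inside Matr3 on the same strand, was at 1.18 ± 0.463 against 2.21 ± 2.49 CPM (SD, n = 3 each, -0.88, adjusted p = 0.487). In this fit Matr3 and the noncoding Snhg4 row were the only called rows of the region. With library totals alone, with no filter, with a filter at 1 CPM or with protein-coding genes only, edgeR called 1 neighbour. In the order given, these fits called 16.1%, 10.6%, 17.3% and 21.8% of all tested genes. Leaving out knockout library 2 gave 4 called neighbours, where 28.1% of all tested genes were called. Leaving out wild-type library 1 gave 2, where 13.5% were called. Leaving out both gave 9, in a fit where 51.0% of all tested genes were called.

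**Figure D2:**
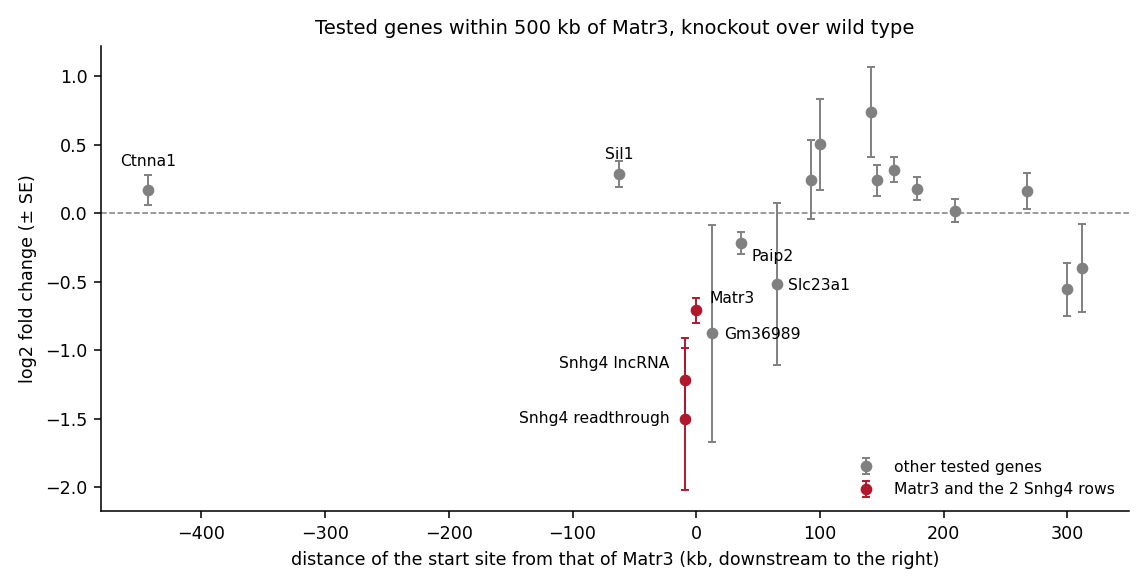
Log2 fold change (knockout over wild type, bars SE) on the y axis against the distance of each tested gene's start from the Matr3 start in kb on the x axis. Matr3 and the 2 Snhg4 rows are red, the 15 other tested genes grey. The red points lie at -0.71, -1.22 and -1.503, and 10 of the 15 grey points lie above 0.

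Safb and Safb2 encode scaffold attachment factors B1 and B2, which repress transcription, and sit back to back on chromosome 17. In the coordinates of the table, Safb (ENSMUSG00000071054, 56891825 to 56913294, plus strand) and Safb2 (ENSMUSG00000042625, 56867965 to 56891585, minus strand) start 239 bases apart. Promoter sequences from RefSeq (GRCm38.p6), matched for 5 of the 8 names, show the region between the starts, which RefSeq places 396 bases apart. The 250 bases before each start are printed because both genes varied together across libraries. Safb is at chr17:56584732-56584981 on the plus strand and Safb2 at chr17:56584586-56584835 on the minus strand. These GRCm38.p6 positions cannot be compared with the coordinates of the table, which differ from that build. The capitals mark the 104 bases that belong to both, each the reverse complement of the other.
Safb: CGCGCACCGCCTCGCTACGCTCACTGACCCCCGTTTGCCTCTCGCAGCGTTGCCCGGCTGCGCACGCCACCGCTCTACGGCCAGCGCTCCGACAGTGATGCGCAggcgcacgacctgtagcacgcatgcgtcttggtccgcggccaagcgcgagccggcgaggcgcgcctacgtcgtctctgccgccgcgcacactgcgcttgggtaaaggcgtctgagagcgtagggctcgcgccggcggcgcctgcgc
Safb2: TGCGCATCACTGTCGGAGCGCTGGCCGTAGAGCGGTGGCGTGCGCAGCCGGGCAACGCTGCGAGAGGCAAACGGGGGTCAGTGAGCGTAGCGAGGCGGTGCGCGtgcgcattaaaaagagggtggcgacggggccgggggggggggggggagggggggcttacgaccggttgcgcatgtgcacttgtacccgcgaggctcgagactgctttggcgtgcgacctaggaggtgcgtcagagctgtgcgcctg
The shared stretch has a GC content of 71.2% and 16 CG dinucleotides. TGCGCA, which is its own reverse complement and was chosen after the sequences were seen, occurs 2 times in the shared stretch, 3 times in the 300-base window of Safb and 5 times in that of Safb2, and 7.76% of the 32851 windows of that length hold it. Common promoter motifs were searched on both strands, and none of them occurs in either window. The CCAAT box is in 37.4% of all windows. The GC box, searched as GGGCGG, is in 35.7%. The ETS motif CCGGAAG is in 8.86%. The TATA box, searched as TATAAA, is in 13.6%, and the E-box CACGTG is in 7.15%.

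The coding sequences of the pair also contain an identical run of 322 bases, which begins at base 634 of the 2817 coding bases of Safb and at base 616 of the 2973 of Safb2 (longest coding transcripts of GENCODE M21). Its first 120 bases are printed because a read from them cannot be assigned to either gene.
Safb and Safb2: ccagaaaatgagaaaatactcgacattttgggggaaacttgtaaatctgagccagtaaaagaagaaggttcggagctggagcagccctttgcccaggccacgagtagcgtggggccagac
Of the distinct 50-base words in the annotated transcripts, 7.41% of those of Safb and 6.61% of those of Safb2 occur in both. The values of the pair are uncertain to that extent, and how the counting treated such reads was not given in the sources used here. Neither shares a 50-base word with Sltm.

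Safb and Safb2 did not differ between the groups beyond the spread of the libraries. Safb was at 182, 106 and 196 CPM in knockout libraries 1 to 3 against 187, 141 and 123 CPM in wild-type libraries 1 to 3. Safb2 was at 90.6, 52.0 and 85.9 CPM in the knockout against 139, 63.4 and 58.3 CPM in wild-type libraries. In both genes knockout libraries 1 and 3 and wild-type library 1 were high and knockout library 2 was the lowest of all 6. The log2 fold changes were 0.10 for Safb (SE 0.238, 95% interval -0.44 to 0.65, edgeR adjusted p = 0.804) and -0.19 for Safb2 (SE 0.341, 95% interval -0.97 to 0.59, adjusted p = 0.742).

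Leaving out knockout library 2 and wild-type library 1, the libraries that stood apart, moved both genes to calls in the other direction from Matr3: 0.52 for Safb (edgeR adjusted p = 4.13e-05) and 0.53 for Safb2 (1.65e-05). In that fit 51% of all tested genes were called, 25.3% as higher. The knockout libraries left in that fit are the pair with a GC correlation of 0.25, and the GC contents of Safb and Safb2 are 54.2% and 57.9%. The part of GC content in this value was not tested. As a share of the summed FPKM of the pair, Safb2 took 30.7%, 30.4% and 28.0% in the knockout and 39.7%, 28.6% and 29.8% in the wild type. The groups overlapped (exact permutation p = 0.8), with wild-type library 1 again apart.

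Sltm, which represses transcription when overexpressed, was lower in the knockout without passing the test. Sltm (ENSMUSG00000032212, chromosome 9, 70450036 to 70499516, plus strand) reached 81.5, 64.7 and 78.6 CPM in the knockout against 126, 88.9 and 84.8 CPM in wild-type libraries. The groups did not overlap, although knockout library 1 came close to wild-type library 3. The log2 fold change was -0.41 (SE 0.164, 95% interval -0.79 to -0.04, edgeR adjusted p = 0.125). Without wild-type library 1 it was -0.20 (adjusted p = 0.302).

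**Figure D3:**
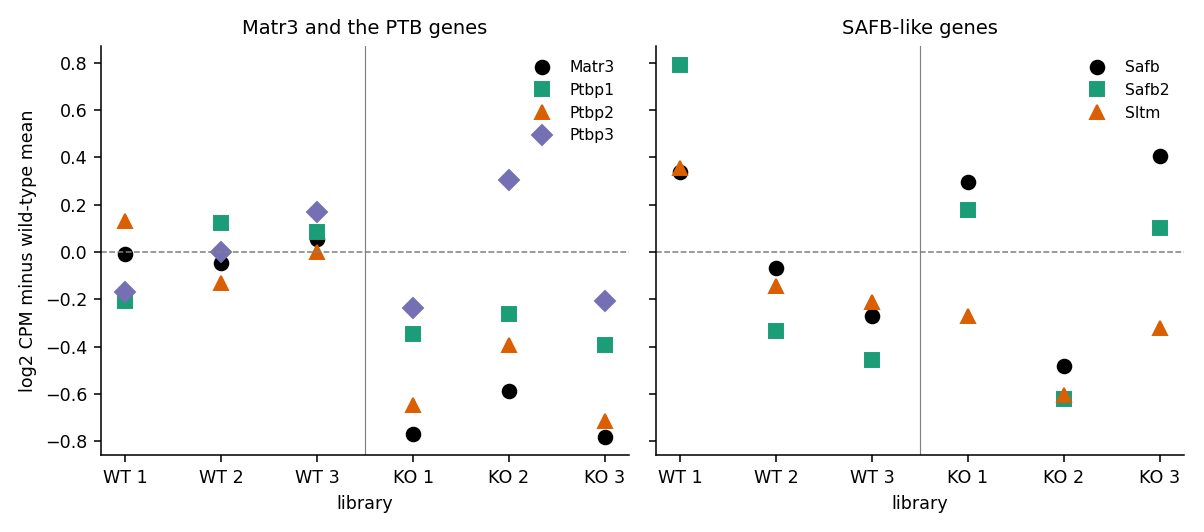
Log2 CPM of each gene minus its wild-type mean on the y axis, for the 3 wild-type and 3 knockout libraries on the x axis. Matr3 and Ptbp2 lie from -0.39 to -0.78 in all knockout libraries. Safb and Safb2 are above 0 in wild-type library 1 and knockout libraries 1 and 3 and below 0 in the other 3 libraries.

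The PTB paralogs were followed because PTBP1 and matrin 3 act on shared exons. Their coding sequences have diverged: no annotated 50-base word is shared between any 2 of them, so reads of that length can be told apart. The longest identical coding runs are printed to show how short they are, and they begin at coding bases 796 and 790, 763 and 766, and 133 and 142 of the named pairs.
Ptbp1 and Ptbp2: tacaacaatgataa
Ptbp1 and Ptbp3: gacttctccaagctcaccag
Ptbp2 and Ptbp3: aagaaatttaaaggaga
These runs span 14, 20 and 17 bases.

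Ptbp2, the neuronal paralog, fell. Ptbp2 (ENSMUSG00000028134, chromosome 3, 119512391 to 119578115, minus strand) reached 53.2, 63.5 and 50.7 CPM in the knockout against 91.3, 76.1 and 83.2 CPM in wild-type libraries. All knockout libraries were below all wild-type libraries, and the level was 33.2% lower (log2 fold change -0.58, SE 0.115, 95% interval -0.84 to -0.32, edgeR adjusted p = 0.0140). Leaving out knockout library 1 (-0.52, adjusted p = 0.0748) ended the call, as did leaving out knockout library 3 (-0.49, 0.0763) and wild-type library 3 (-0.58, 0.0589). The transcript has the lowest GC content of the 9 rows, 34.2%. After removal of the GC and length trends the log2 fold change of Ptbp2 was -0.31 (edgeR adjusted p = 0.0267). The summed level of 10 neuronal markers overlapped between the groups, at 20.5 to 23.5 FPKM in the knockout and 20.1 to 22.4 FPKM in wild-type libraries, and Rbfox3 and Elavl4 held 0 reads.

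Ptbp1, the most abundant gene of the set, was lower in every knockout library, without a call. Ptbp1 (ENSMUSG00000006498, chromosome 10, 79690261 to 79700605, plus strand) reached 392, 416 and 381 CPM in the knockout against 433, 544 and 530 CPM in wild-type libraries. Wild-type library 1 lay nearest to the knockout, and the groups did not overlap. The level was 21.05% lower (log2 fold change -0.34, SE 0.110, 95% interval -0.59 to -0.09, edgeR adjusted p = 0.0710). It passed the threshold when wild-type library 1 was left out (-0.42, adjusted p = 0.0223) and when knockout library 2 was (-0.37, 0.0398). Those fits called 6.56% and 13.1% of all tested genes lower.

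Ptbp3, also known as ROD1, did not differ beyond the spread. Ptbp3 (ENSMUSG00000028382, chromosome 4, 59471868 to 59549364, minus strand) reached 165, 240 and 168 CPM in the knockout against 173, 194 and 218 CPM in wild-type libraries. Knockout library 2 was the highest of all 6 and knockout libraries 1 and 3 the lowest, so the group means met (log2 fold change -0.03, SE 0.160, 95% interval -0.40 to 0.34, edgeR adjusted p = 0.916). The log2 fold change of Ptbp3 became -0.31 (edgeR adjusted p = 0.000746) when knockout library 2 and wild-type library 1 were left out. That fit called 25.7% of all tested genes lower. After removal of the GC and length trends the log2 fold change of Ptbp3 was 0.14 (edgeR adjusted p = 0.465).

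Per length, Ptbp1 made up most of the PTB transcripts in every library. Its share of the summed FPKM of the 3 genes was 74.8%, 69.3% and 74.1% in the knockout and 73.4%, 77.0% and 74.5% in the wild type, and the groups overlapped (exact permutation p = 0.5, adjusted over the 3 shares 0.5). Ptbp2 took 5.24%, 5.46% and 5.10% against 8.004%, 5.57% and 6.05%. Ptbp3 took 19.9%, 25.3% and 20.8% against 18.6%, 17.4% and 19.4%. The shares of Ptbp2 and Ptbp3 did not overlap between the groups, lower and higher in the knockout, and each reached the smallest p that 3 against 3 libraries allow (exact two-sided permutation p = 0.1, adjusted p = 0.15 each). The Ptbp2 difference of -1.27 percentage points was -0.538 without wild-type library 1, and the Ptbp3 difference of 3.51 was 1.87 without knockout library 2. The shares keep each library's trend with GC content, which is 53.7% for Ptbp1, 34.2% for Ptbp2 and 38.9% for Ptbp3. The part of GC content in the shares was not tested. The sum was 115 ± 10.6 FPKM in the knockout and 140 ± 15.9 FPKM in the wild type (SD, n = 3 each). The groups overlapped in this sum, with knockout library 2 at 128 FPKM and wild-type library 1 at 122 FPKM.

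In the order of FPKM over all 6 libraries, Ptbp1 led with a mean of 94.5 (80.4 to 115), apart from all others. Ptbp3 followed with 25.7 (21.9 to 32.2) and Safb with 21.4 (14.7 to 27.0), and their ranges overlapped. Matr3 (10.2), Safb2 (9.92), Sltm (7.71) and Ptbp2 (7.56) formed a group whose ranges overlapped from 1 to the next. The noncoding Snhg4 row averaged 3.06 FPKM (1.79 to 6.67), overlapping Ptbp2 only through wild-type library 1. The second Snhg4 row lay lowest at 0.200 FPKM. In the wild type alone Matr3 (12.3 to 13.2 FPKM) lay above Ptbp2 (8.29 to 9.76 FPKM) in every library. In the knockout Matr3 (7.41 to 8.53 FPKM) lay above Sltm (5.77 to 7.19 FPKM) and Ptbp2 (5.53 to 6.96 FPKM). Safb2 was higher than Matr3 in knockout libraries 1 and 3 (11.04 and 10.5 FPKM) and lower in library 2 (6.41 FPKM), with knockout means of 9.32 and 7.80 FPKM.

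**Figure D4:**
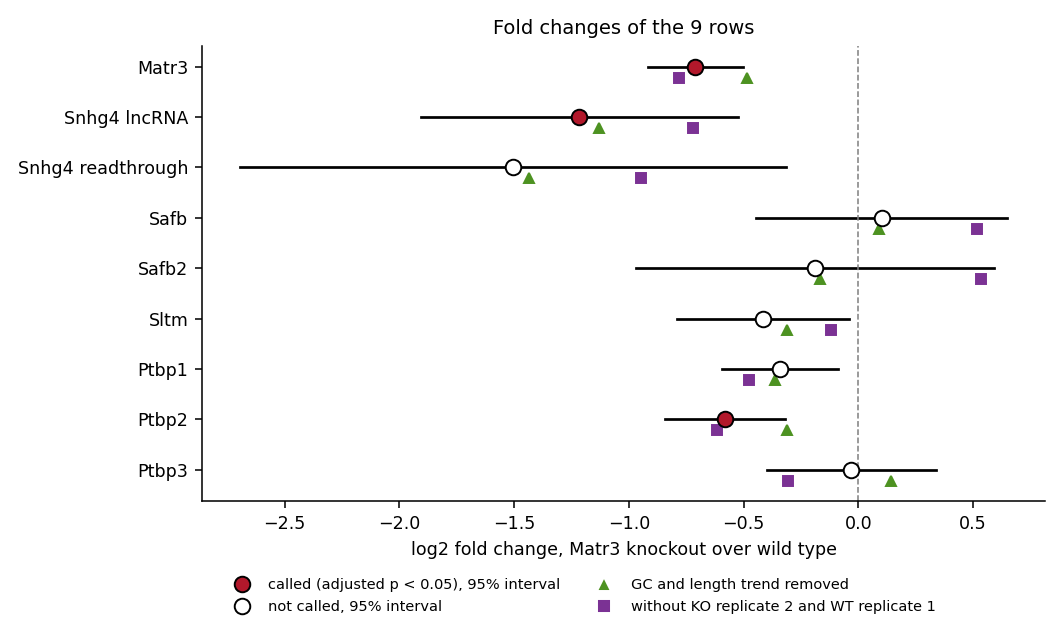
Log2 fold change (knockout over wild type) on the x axis for the 9 rows, with 95% intervals. Red circles mark the 3 called rows, green triangles the fit with GC and length trends removed, and purple squares the fit without knockout library 2 and wild-type library 1. Safb and Safb2 move from 0.10 and -0.19 to 0.52 and 0.53 in the fit without those 2 libraries, while Matr3 stays between -0.49 and -0.78.

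The authors' deposited table of their own comparison gives log2 fold changes of -0.95 for the noncoding Snhg4 row (adjusted p = 0.000237), -0.53 for Ptbp2 (0.000673), -0.37 for Sltm (0.0759) and -0.31 for Ptbp1 (0.0535). For Safb, Safb2 and Ptbp3 the authors' deposited table lists 0.10, -0.10 and -0.02, with adjusted p-values of 0.778, 0.846 and 0.958. The second Snhg4 row is at -0.46 there (authors' adjusted p = 0.209), a smaller fall than the -1.503 of the edgeR fit. In the authors' deposited table, too, Matr3, the noncoding Snhg4 row and Ptbp2 are the rows of this set under an adjusted p of 0.05.

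Genes around matrin 3 were counted from 5 lists: reported protein partners, nuclear scaffold and lamina genes, zinc-finger relatives, splicing regulators that bind RNA tracts, and snoRNA hosts. In all, 15 of 108 tested rows fell and 0 rose (13.9% lower, beside 7.48% of all tested genes). The 108 include both Snhg4 rows, and without them 14 of 106 fell. At the same threshold DESeq2 called 21 lower and 0 higher (7.26% of all genes lower), and limma voom 16 lower and 0 higher (7.53%). With the GC and length trend removed, edgeR called 7 lower and 1 higher, beside 7.22% and 10.7% of all tested genes. The lower calls then no longer exceeded the share among all genes.

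Among the transcripts of 20 genes whose proteins are reported to bind MATR3, 6 fell, 0 rose and 14 did not pass (median log2 fold change -0.19). The 6 are 30% of the list, beside 7.48% of all tested genes called lower. Tardbp, which encodes the splicing repressor TDP-43, fell from 379 ± 40.0 to 235 ± 8.76 CPM (SD, n = 3 each, log2 fold change -0.69, edgeR adjusted p = 0.00439). The mRNA export receptor gene Nxf1 (-0.48), the helicase gene Ddx3x (-0.41) and the paraspeckle protein gene Sfpq (-0.34) fell less (edgeR adjusted p = 0.0229, 0.0348 and 0.0380). Mphosph8 (-0.32), a subunit of the HUSH silencing complex, and the helicase gene Dhx9 (-0.43) also fell. Their names, and that of Srrm1 among the scaffold genes, were added once their values were known. With the GC and length trend removed, the calls of Ddx3x, Dhx9 and Mphosph8 ended, and those of Tardbp, Nxf1 and Sfpq were kept.

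Among 31 tested genes of the nuclear scaffold and lamina, 5 fell, 0 rose and 26 did not pass (median -0.13). The 5 are 16.1% of the list, beside 7.48% of all tested genes called lower. Ncl, which encodes the nucleolar protein nucleolin, fell from 1482 ± 47.1 to 947 ± 96.4 CPM (SD, n = 3 each, log2 fold change -0.65, edgeR adjusted p = 0.00628). The nuclear basket gene Tpr (-0.41), the splicing-linked gene Bclaf1 (-0.44) and the splicing coactivator gene Srrm1 (-0.33) fell too. Of 14 tested genes for proteins with matrin-type or U1-C-like zinc fingers, 2 fell, 0 rose and 12 did not pass (median -0.03). The 2 are 14.3% of that list. Zmat3, a p53 target that binds AU-rich RNA, fell from 56.9 ± 4.34 to 32.5 ± 1.08 CPM (SD, n = 3 each, -0.81, edgeR adjusted p = 0.00179). Zfp638, a relative of matrin 3 that recruits silencing factors to DNA, fell by 0.47 on the log2 scale (edgeR adjusted p = 0.0476). Tut1 (-0.28, adjusted p = 0.152) and Zfp346 (-0.31, 0.155) did not pass.

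Of 29 tested splicing regulators that bind RNA tracts, only Fubp1 fell, 0 rose and 28 did not pass (median -0.14). That is 3.45% of the list, below the 7.48% of all tested genes called lower. Fubp1, which binds the far-upstream element of Myc and uridine-rich RNA, was at 121 ± 23.1 against 234 ± 47.6 CPM (SD, n = 3 each, log2 fold change -0.95, edgeR adjusted p = 0.0121). Celf1 (-0.29, adjusted p = 0.0505), Elavl1 (-0.26, 0.0786) and Rbfox2 (0.26, 0.0979) did not pass. Of 14 tested rows of snoRNA host genes, which include both Snhg4 rows, the noncoding Snhg4 row was the only call (list median -0.27). It makes up 7.14% of the list, near the share among all tested genes. Snhg10 (-0.98, adjusted p = 0.191) and Gas5 (-0.39, adjusted p = 0.285) did not pass.

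The counts over the 5 lists moved with single libraries. Leaving out 1 knockout library gave 4 genes lower for library 1, 25 for library 2 and 4 for library 3, with 0, 12 and 0 higher. In these fits 2.53%, 13.1% and 2.46% of all tested genes were called lower and 3.09%, 15% and 2.97% higher. Leaving out 1 wild-type library gave 12, 6 and 5 lower, with 2, 0 and 0 higher. Of all tested genes, 6.56%, 3.05% and 2.71% were then lower and 6.92%, 3.03% and 2.57% higher. In the fit that omits both knockout library 2 and wild-type library 1, 40 were lower and 32 higher, beside 25.7% and 25.3% of all tested genes. With the GC and length trend removed, 7 were lower and 1 higher, beside 7.22% and 10.7% of all tested genes: 9 of the 15 calls ended, 6 were kept and 2 were gained. The log2 fold changes of those that ended were -0.64 for Fubp1, -0.47 for Ncl, -0.30 for Dhx9, -0.28 for Tpr and Ddx3x, -0.25 for Srrm1, -0.22 for Zfp638 and Mphosph8 and -0.17 for Bclaf1 (edgeR adjusted p from 0.0504 for Tpr to 0.349 for Bclaf1). The gained calls, named for that reason, were Tut1 (-0.32, adjusted p = 0.0296) and the splicing regulator gene Mbnl3 (0.48, 0.0154).

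**Figure D5:**
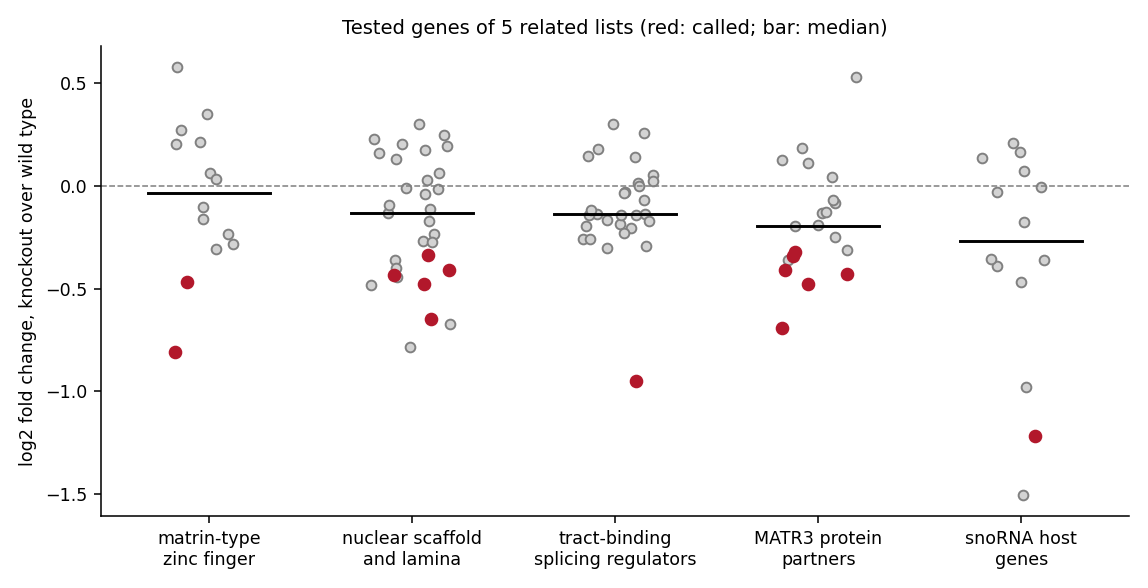
Log2 fold changes (knockout over wild type, y axis) of the tested genes of the 5 lists on the x axis, with a bar at each list's median. All red points, the called genes, lie below 0: 2, 5, 1, 6 and 1 genes from left to right. The medians run from -0.03 to -0.27.

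The genes whose pattern over the 6 libraries was closest to that of Matr3 were sought among 9913 other protein-coding genes that averaged 5 CPM or more. The measure was the root-mean-square difference of log2 CPM, each gene taken relative to its wild-type mean. The 5 closest were Polr1b, a subunit of RNA polymerase I (0.0486), the ATPase gene Ola1 (0.0524), the methyltransferase cofactor gene Wdr77 (0.0525), the phosphate transporter gene Slc20a1 (0.0558) and Mipol1 (0.0606). Closest to Ptbp1 were the cochaperone gene Bag2 (0.0323), Tmem183a (0.0335) and the nucleoporin gene Nup93 (0.0345). Closest to Sltm were the hnRNP-like gene Hnrnpdl (0.0318), the kinase inhibitor gene Camk2n1 (0.0540) and 2410002F23Rik (0.0585).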

How the data were processed

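The authors deposited 1 table for the series. Per the file headers it holds raw counts per gene, which entered the tests unchanged. The authors' FPKM values divide counts by gene length and library size and served for levels between genes. The deposited group means (signal), log2 fold change and p-values come from the authors' own comparison. How reads were aligned and counted, with or without strand, was not given in the sources used here. GRCm38 and mm10 are named in the submitters' processing notes. Of 52081 gene identifiers found in GENCODE M21 (GRCm38), however, only 1494 have the same coordinates. Safb starts at 56891825 in the table, whereas the GRCm38.p6 bases before its start end at 56584981. Coordinates are given as in the table and differ from GRCm38, and which build they follow is not settled. GENCODE and RefSeq sequences were joined by gene identifier or symbol.

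The tests ran in edgeR 4.0.16 under R 4.3.3 (filterByExpr, TMM, quasi-likelihood F test, no covariate), which kept 14842 of 27065 genes with a count. CPM is scaled by TMM, SE follows from the F statistic, and intervals use the fit's degrees of freedom. Alternatives used DESeq2 1.42.0 and limma 3.58.1. GC and length trends were removed with splines per library, for the 98.8% of tested genes with a GC value. The code was tested on simulated counts. Besides the 8 names, the text names up to 4 genes per list by smallest p, the nearest neighbours and the genes closest in pattern. A gene that this rule would name is not reported here. The members and lists were chosen with earlier results of these data known.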

Additional observations from a re-analysis of the deposited data

How the results depend on the processing

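Matr3 kept its direction and call under all alternatives run, with log2 fold changes from -0.78 to -0.49. Leaving out 1 library at a time gave -0.68 to -0.49 for Ptbp2, -1.41 to -0.71 for the noncoding Snhg4 row, -0.42 to -0.27 for Ptbp1, -0.22 to 0.094 for Ptbp3, -0.035 to 0.34 for Safb, -0.53 to -0.024 for Gas5 and -0.40 to 0.34 for Safb2, with 1 to 4 of the 9 rows called lower and 0 higher, 4 to 25 list genes lower, 0 to 12 higher and 0 to 4 neighbours called. Without knockout library 2 and wild-type library 1, 5 rows were lower and 2 higher, 40 list genes were lower and 32 higher, 9 neighbours were called, and the log2 fold changes were -0.47 (Ptbp1), -0.31 (Ptbp3), 0.52 (Safb), 0.53 (Safb2) and 0.036 (Gas5), a fit with fewer samples. Of all tested genes, 5.28% to 28.1% were called with 1 library left out. Without both libraries 25.7% were called lower and 25.3% higher. In that fit the Snhg4 share differed by 0.364 and the Safb2 share by 0.221 percentage points, both turned in direction. Without 1 library these shares differed by -5.22 to -0.0781 and by -5.03 to 0.549 percentage points. At an adjusted p of 0.01 only Matr3 was called (1 row), with Ptbp2 at -0.58 and Snhg4 at -1.22. At that threshold 3 list genes were lower, beside 2.52% of all tested genes. The noncoding Snhg4 row was not called by limma voom (-1.08) or limma on log2(FPKM + 1) (-0.82) and log2(FPKM + 0.1) (-1.06). Both FPKM fits called 8 list genes lower and 2 neighbours. They called 12.5% and 12.6% of all tested genes, 5.71% and 5.86% as lower. With no filter Ptbp3 was at 0.011, 2 list genes were higher (5.82% of all tested genes) and 1 neighbour was called. With library totals, with a mean of at least 1 CPM and with protein-coding genes only, 1 neighbour was called as well. In the order given, these fits called 10.6%, 16.1%, 17.3% and 21.8% of all tested genes. With GC and length trends removed Ptbp3 was at 0.14, and 7 list genes were lower and 1 higher (7.22% and 10.7% of all tested genes). The cause of these changes was not tested.

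The labels do not say whether the replicate numbers pair the libraries. The deviations of same-numbered libraries correlated at 0.17, -0.03 and -0.19, beside -0.21 to 0.27 for libraries with different numbers. With 3 libraries per group these values cannot settle it. With the replicate number as a block 9 list genes were lower, beside 5.48% of all tested genes. All 3 called rows stayed called (Matr3 -0.71, Ptbp2 -0.58, Snhg4 -1.11). With the block and GC and length trends removed together Ptbp3 was at 0.15 and Ptbp2 at -0.31 and not called. In that fit 8 list genes were lower and 1 higher, beside 6.61% and 9.45% of all tested genes. The noncoding Snhg4 row has no value among protein-coding genes, nor the second row at a mean of at least 1 CPM.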
